A study of Homo sapiens with 24 samples.

Results

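The genes described are the zinc finger genes with a ZNF name whose signal passed a set level in HCT116 colon cancer cells. They were chosen by name and by measured level: the platform's symbol is ZNF followed by digits and at most 1 capital letter, the gene's brightest probe set (the probes summed into 1 value) represents it, and its mean log2 signal over all 24 arrays is above 6. Of 491 ZNF genes with a probe set of a single symbol, 117 were kept and 374 were not, out of 18239 genes tested. Of the 117, 34 rest on probe sets with the suffix x or s, whose probes can bind other transcripts. Only 112 of the 117 had a probe set without these suffixes. For members measured on both kinds, means without these suffixes ran from 2.94 for ZNF185 to 9.74 for ZNF664, so not all would pass the level. The genes just above the limit were ZNF48 at 6.0052, ZNF180 at 6.0030 and ZNF318 at 6.0015, and the genes just below it were ZNF710 at 5.9917, ZNF513 at 5.9742 and ZNF669 at 5.9674. The mean over all arrays chose the members, so their brightness is a description; differences between groups were not used by the rule. Even so, 45 of the 117 had a mean under 6 in at least 1 group, and 5 were kept only through their highest group. Of these 5, ZNF271P and ZNF654 read 7.72 and 7.96 in hypoxic ESR2 cells with estradiol and 5.80 and 5.9982 on average in the other 7 groups. ZNF180 and ZNF48 were carried by normoxic ESR2 cells with estradiol, and ZNF318 by hypoxic ESR2 cells. Changes of these genes that involve the group named are tied to their selection and are given below as descriptions.

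The arrays form 8 groups of 3. HCT116 is an established line from a human colorectal carcinoma, and the groups cross parental HCT116 cells or HCT116 cells transduced with ESR2, the gene of estrogen receptor β, with normoxia or hypoxia and with no estradiol or 10 nM 17β-estradiol. Per the labels, the ESR2 cells express a HaloTag fusion of the receptor from a lentiviral vector that also carries GFP, and they were selected with puromycin and used as a pool; all ESR2 groups therefore also carry the vector, and no vector control is among these groups. Hypoxia was made by displacing air with nitrogen and carbon dioxide, and its length is not given in the sources used here. The medium for estradiol was free of phenol red and held charcoal-stripped serum; that of the other groups is not given in the sources used here. The labels do not say whether the 3 samples of a group are separate cultures, so p-values reflect only how these samples vary, which may be technical.

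Most ZNF genes encode proteins with arrays of C2H2 zinc fingers that bind DNA. The largest class joins such an array to a KRAB domain, which recruits the corepressor TRIM28 and, through it, the histone methyltransferase SETDB1, so that the bound DNA, often a transposable element, is packed into heterochromatin. KRAB zinc finger genes lie in clusters of tandem copies, many of them on chromosome 19, and their transcripts are usually scarce. Other proteins with a ZNF name act in RNA metabolism, ribosome assembly, ubiquitin or SUMO transfer, or mitosis.

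Some arrays stood apart. One array of parental cells in normoxia, replicate 2, had a difference between the 3′ and 5′ control probe sets of 4.34 on the log2 scale, against 2.65 and 2.60 in its group, and its lowest correlation with its group was 0.988. The hypoxic ESR2 cells with estradiol had a difference of 3.74 ± 0.30 (SD, n = 3), against group means of 2.10 to 3.20 elsewhere. A larger difference means that less of the signal far from the 3′ end was recovered. For most comparisons that use these arrays, counts of members called are given below with and without replicate 2, or with this index as a covariate. Named genes and overlaps between comparisons are mostly given without that check. With the index as a covariate 149 of 150 results for named genes kept their call. The part of RNA length in these results was not tested further. The ESR2 probe set read 3.47 ± 0.11 and 3.43 ± 0.11 in normoxic and hypoxic parental cells, and 4.51 ± 0.44 and 4.07 ± 0.11 (SD, n = 3 each) in the ESR2 cells; whether its probes lie within the transgene is not given in the sources used here. Of 10 markers of colon epithelium, 7 had a mean above 6, led by KRT19 at 11.4 and EPCAM at 11.2, while CDH17 and VIL1 read 3.60 and 3.09. All 8 fibroblast markers had means between 2.40 and 3.92, summing to 25.2 to 26.3 over the groups, and the 7 leukocyte markers measured had means between 2.63 (PTPRC) and 5.81 (CD68, which reached 7.23 in 1 group), summing to 25.9 to 30.7. Of 9 known hypoxia targets measured, 9 rose in hypoxia in parental cells, in ESR2 cells and in parental cells with estradiol, and 8 rose in ESR2 cells with estradiol; their median changes were 2.85, 2.61, 2.69 and 1.94. Of these 9, 7 changed less in ESR2 than in parental cells by the test of the difference, and 9 did with estradiol.

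The brightest members by mean signal of their probe set were ZNF207 at 10.75, ZNF664 at 10.27, ZNF706 at 9.95, ZNF146 at 9.67 and ZNF440 at 9.33, and the median over the 117 was 6.80. ZNF207 encodes BuGZ, a protein of the spindle and kinetochore, and ZNF146 encodes OZF, which consists of little but fingers. Array signals of different probe sets do not rank the genes by transcript number. Of the members, 30 lie on chromosome 19, which is 25.6%, against 54.8% of the ZNF genes not kept and 7.13% of all genes tested. A pair of the members, ZNF252P and ZNF271P, are annotated as transcribed pseudogenes. The group means of a member differed by 0.21 to 2.85 between its lowest and its highest group, with a median of 0.99, and for 58 members the span was over 1, a 2-fold range. The median SD within a group was 0.10. In at least 1 of the 14 comparisons below 112 members were called, and 5 were called in none. Neither these counts nor the spans were made for other genes, so they do not set the members apart. In a single comparison up to 71.7% of the genes with a mean above 6 were called.

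**Figure D1:**
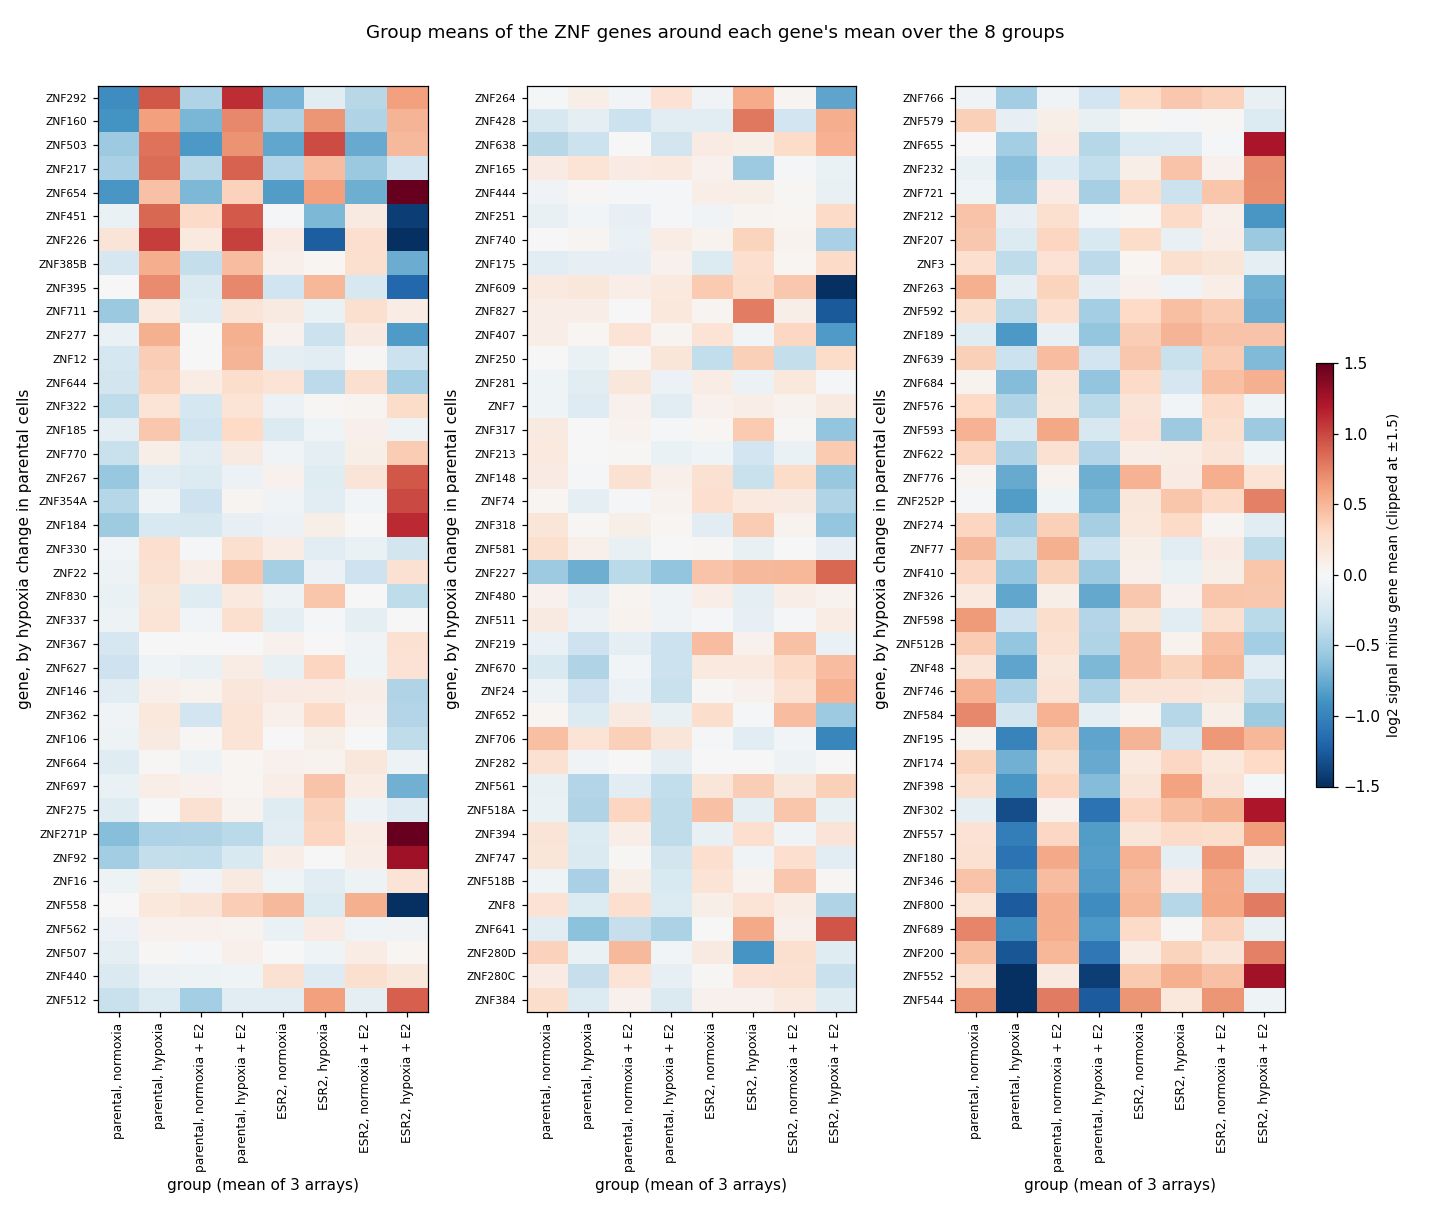
Mean log2 signal of each of the 117 ZNF genes in the 8 groups (3 arrays each; E2, estradiol), minus the gene's mean over the groups, in colour from blue (lower) to red (higher) and clipped at ±1.5. Genes run from the largest rise in hypoxic parental cells at the top left to the largest fall at the bottom right; the last column, hypoxic ESR2 cells with estradiol, holds the lowest values of ZNF609 and ZNF827 and the highest of ZNF654 and ZNF655.

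In hypoxic parental cells 75 of the 117 genes differed from normoxia, and more fell than rose. ZNF292, a large nuclear zinc finger protein, rose 3.65-fold, and ZNF544, a KRAB zinc finger gene, fell 4.90-fold. These are bulk samples, in which fewer cells of a type and less RNA per cell cannot be told apart. At an adjusted p under 0.05 in limma's moderated test, with Benjamini-Hochberg adjustment over all genes tested, 24 members rose against 16.4% of all genes, and 51 fell against 21.2% of all genes. These are 20.5% and 43.6% of the members. Among the 7189 genes tested with a mean above 6, the level that members also had to pass, 26.5% rose and 39.9% fell. The members' shares lay near those of these genes, called bright genes below, but the sets are not matched in brightness. On every array the bright genes had the higher median signal, such as 7.95 against 6.96 for the members on replicate 1 of normoxic parental cells. The median change was -0.17 for the members and -0.08 for those bright genes; normalizing the quantiles once more gave 30 higher and 49 lower and moved the members' median to -0.09. Leaving out replicate 2 of normoxic parental cells left 20 higher and 51 lower, and the index as a covariate 21 and 49.

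Among the genes that rose in hypoxic parental cells, ZNF292 read 7.02, 6.12 and 6.69 in normoxia and 8.48, 8.55 and 8.40 in hypoxia, a rise of 1.87 ± 0.19 (SE; limma adjusted p = 1.88e-08). The low normoxic value is that of replicate 2, and the groups did not overlap. All 4 probe sets of ZNF292 with a mean above 5 rose, by 1.44 to 1.87. ZNF217, an oncogenic transcription factor that works with the CtBP and CoREST corepressors, read 7.16, 6.92 and 7.11 in normoxia and 8.39, 8.47 and 8.30 in hypoxia. Its rise was 1.32 ± 0.09 (SE; limma adjusted p = 3.93e-11), and the groups did not overlap. ZNF503, a repressor of the NET family that also holds ZNF703, went from 7.42, 7.90 and 7.51 to 9.08, 8.97 and 8.84. ZNF654 went from 5.58, 4.92 and 5.61 to 6.69, 6.68 and 6.66, again with replicate 2 lowest in normoxia. Neither gene's groups overlapped. ZNF160, a KRAB gene, went from 5.88, 5.81 and 5.75 to 7.18, 7.36 and 7.46. That probe set carries the suffix x, which marks probes that can bind other transcripts, and the brightest ZNF160 probe set without such a suffix had a mean of 2.95. Smaller rises were those of ZNF451, a SUMO ligase, by 0.96 ± 0.17, of ZNF226 by 0.85 ± 0.13, of ZNF385B by 0.79 ± 0.09, of ZNF395 by 0.71 ± 0.08 and of ZNF711, a partner of the histone demethylase PHF8, by 0.71 ± 0.13 (SE).

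ZNF544 had the largest fall in hypoxic parental cells among the members. It read 7.11, 7.06 and 7.14 in normoxia and 4.71, 4.88 and 4.84 in hypoxia, a change of -2.29 ± 0.08 (SE; limma adjusted p = 4.22e-16). ZNF552, also a KRAB gene, read 7.05, 7.03 and 7.04 in normoxia and 5.16, 5.40 and 5.07 in hypoxia, a change of -1.83 ± 0.08 (SE; limma adjusted p = 1.74e-14). In both genes every hypoxic array lay far below every normoxic one, and the 3 arrays of a group lay close together. ZNF200 changed by -1.74 ± 0.14, ZNF689 by -1.70 ± 0.11, ZNF800 by -1.46 ± 0.14, ZNF180 by -1.34 ± 0.12, ZNF557 by -1.25 ± 0.09, ZNF302 by -1.18 ± 0.12 and ZNF398 by -1.12 ± 0.10 (SE). ZNF346, which encodes JAZ, a protein that binds double-stranded RNA, changed by -1.40 ± 0.07. ZNF398 encodes ZER6, of which an isoform binds estrogen receptor α. The call for ZNF800 was lost when all its probe sets were averaged, with a change of -0.19 (limma adjusted p = 0.19). ZNF302 had no fall, 0.0027, on its brightest probe set without an x or s suffix, whose mean was 3.98. A second x probe set of ZNF302, with a mean of 5.36, changed by -0.61 (limma adjusted p = 2.47e-05, over all probe sets).

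The contrast was also made in parental cells with estradiol, on other arrays. In parental cells with estradiol 23 members rose in hypoxia, against 16.1% of all genes, and 46 fell, against 18.7%. As shares of the members these are 19.7% and 39.3%, against 26.7% and 36.5% of the genes with a mean above 6. Of the 75 members called without estradiol and the 69 called with it, 62 were called in the same direction, which is 82.7% and 89.9%, and 0 in opposite directions. Over all genes tested the shares in the same direction were 80.3% and 86.6%, and 0 genes were called in opposite directions. Across the 117 members the changes correlated with r = 0.97, against 0.95 across all genes, within which array normalization is shared and genes are not independent. With estradiol ZNF292 rose by 1.57, ZNF503 by 1.53, ZNF160 by 1.41, ZNF217 by 1.31 and ZNF654 by 1.01, of which ZNF160 lost its call without x and s probe sets (0.27, limma adjusted p = 0.0528), and ZNF544 changed by -2.03, ZNF200 by -1.56, ZNF552 by -1.54, ZNF800 by -1.48 and ZNF689 by -1.41 on the log2 scale.

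In hypoxic ESR2 cells 57 members differed from normoxia. The leading rises were those of ZNF503, by 1.76 ± 0.11 (SE; limma adjusted p = 3.37e-11), of ZNF654 by 1.46 ± 0.15, of ZNF160 by 1.12 ± 0.11, of ZNF428 by 0.96 ± 0.11 and of ZNF217 by 0.91 ± 0.09. The leading falls were those of ZNF226, by -1.36 ± 0.13 (SE; limma adjusted p = 1.4e-08), of ZNF280D by -1.01 ± 0.08 and of ZNF800 by -0.93 ± 0.14. In all, 25 members rose, against 14.4% of all genes, and 32 fell, against 18.2%; in all 48.7% of the members were called, and 52.7% of the genes with a mean above 6. ZNF428 read 6.95, 6.87 and 6.95 in normoxia and 7.91, 7.81 and 7.91 in hypoxia in ESR2 cells, whereas in parental cells it read 7.02, 6.47 and 7.03 in normoxia and 6.99, 6.76 and 7.04 in hypoxia. Further rises were those of ZNF395, by 0.79, of ZNF512 by 0.77, of ZNF827, a protein that brings the NuRD remodeller to telomeres, by 0.73, of ZNF250 by 0.72 and of ZNF264 by 0.60. Further falls were those of ZNF195 by -0.78, of ZNF593 by -0.76, of ZNF639 by -0.74, of ZNF558 by -0.69, of ZNF180 by -0.67, of ZNF451 by -0.65 and of ZNF165, a gene known as a cancer-testis antigen, by -0.62. Some of these depend on the probe set. ZNF160 had a change of 0.10 on its brightest probe set without an x or s suffix (limma adjusted p = 0.524), and over the mean of all probe sets ZNF800 changed by -0.22 and ZNF451 by -0.07 (limma adjusted p = 0.118 and 0.459).

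With estradiol, hypoxic ESR2 cells differed from normoxic ones in 86 members. Of these 31 rose in hypoxia, against 29.6% of all genes, and 55 fell, against 22.6%. These are 26.5% and 47.0% of the members, against 28.8% and 42.4% of the genes with a mean above 6. Normalizing the quantiles once more gave 40 higher and 47 lower and moved the members' median from -0.18 to -0.03, while the index as a covariate gave 32 and 54. ZNF655 rose by 1.25 ± 0.09 (SE; limma adjusted p = 2.72e-11), ZNF503 by 1.24 and the KRAB gene ZNF92 by 1.17. ZNF654 and the pseudogene ZNF271P, both kept only through this group, were 2.45 and 1.57 higher in it. ZNF558 changed by -2.06, ZNF609 by -2.02, ZNF226 by -1.79, ZNF451 by -1.54 and ZNF827 by -1.35; on its brightest probe set without an x or s suffix ZNF451 did not fall (0.0179, limma adjusted p = 0.909). The hypoxia contrasts of ESR2 cells with and without estradiol share no arrays, and 36 members were called in the same direction in both, 63.2% of the 57 and 41.9% of the 86, while 10 were called in opposite directions. Over all genes tested the shares in the same direction were 51.8% and 32.3%, and 971 of 18239 were called in opposite directions.

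Some genes were called in hypoxia in the same direction in both kinds of cells, without and with estradiol. The 4 hypoxia contrasts share no arrays, and 6 members rose in all of them: ZNF654, ZNF503, ZNF160, ZNF292, ZNF217 and ZNF22. That is 5.13% of the members, against 4.23% of all genes and 7.80% of those with a mean above 6. A further 13 fell in all 4, 11.1% of the members, against 5.43% and 11.7%, so that neither share stands out from that of bright genes. The 6 include ZNF654 and the 13 include ZNF180. Each was kept only through a group used in 1 of these contrasts, so both shares are partly tied to selection. Averaged over the contrasts the rises were 1.56 for ZNF654, 1.47 for ZNF503, 1.25 for ZNF160, 1.25 for ZNF292, 0.95 for ZNF217 and 0.39 for ZNF22. The size still varied between contrasts: ZNF292 rose by 0.54 to 1.87 and ZNF217 by 0.27 to 1.32, while ZNF503 rose by 1.24 to 1.76. In hypoxic ESR2 cells with estradiol ZNF217 read 7.24, 7.45 and 7.12, just above the 7.07, 6.92 and 7.01 of its normoxic group, and ZNF654 read 7.73, 8.13 and 8.03, above every other group; ZNF654 was kept only through these arrays, so its rise in this contrast is a description.

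The falls common to all 4 contrasts averaged -1.39 for ZNF544, -0.99 for ZNF180, -0.96 for ZNF346, -0.80 for ZNF639, -0.78 for ZNF593 and -0.74 for ZNF512B, which binds the NuRD complex. The ZNF544 values come from an x probe set. Its other probe set with a mean above 5, at 6.14, changed by -2.10 in parental cells. In ESR2 cells it changed by -0.19 and was not called (limma adjusted p = 0.214, over all probe sets). ZNF180 was kept only through normoxic ESR2 cells with estradiol, so its fall in that contrast is a description. Another probe set of ZNF512B, with a mean of 5.70, went the other way in ESR2 cells, by 0.33 (limma adjusted p = 0.00804, over all probe sets), and changed by -0.06 in parental cells, where it was not called. ZNF593, a factor of the maturing large ribosomal subunit, varied least in size, between 0.75 and 0.82 in the 4 contrasts. It read 8.90, 9.29 and 8.95 in normoxic parental cells and 8.34, 8.28 and 8.28 in hypoxic ones, and 8.63, 8.69 and 8.90 against 7.81, 7.95 and 8.19 in ESR2 cells. ZNF639 read 9.48, 8.86 and 9.20 against 8.44, 8.53 and 8.53 in parental cells and 9.20, 9.25 and 9.24 against 8.59, 8.36 and 8.53 in ESR2 cells, so normoxic and hypoxic arrays did not overlap in either. ZNF598, the ubiquitin ligase that marks collided ribosomes, and ZNF207 were among the other 7. ZNF207, the brightest member, fell by 0.38 to 0.66, from 11.21, 11.15 and 11.09 to 10.49, 10.51 and 10.62 in parental cells.

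**Figure D2:**
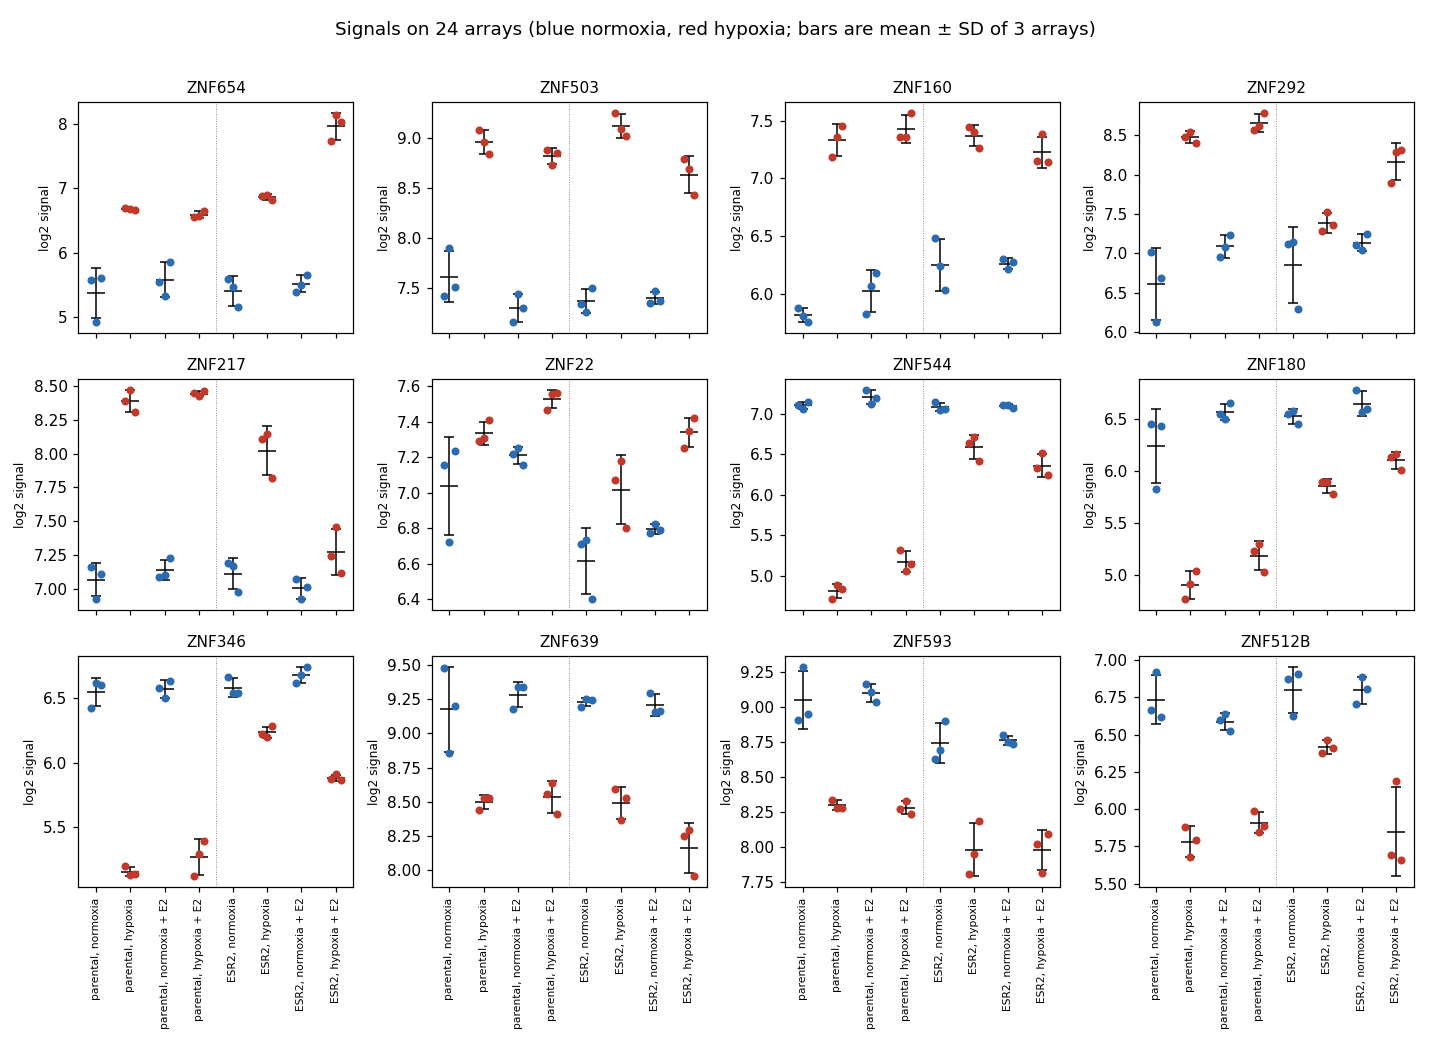
Log2 signal on each of the 24 arrays (points; blue normoxia, red hypoxia) with group mean ± SD of 3 arrays (bars), for the 6 genes that rose in all 4 hypoxia contrasts and the 6 with the largest mean fall among the 13 that fell in all 4; parental groups stand left of the dotted line and ESR2 groups right of it (E2, estradiol). ZNF544 reads 4.71 to 4.88 in hypoxic parental cells but 6.42 to 6.71 in hypoxic ESR2 cells, and ZNF654 is highest in hypoxic ESR2 cells with estradiol.

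The promoters of members that moved in all 4 hypoxia contrasts were searched for the cores of hypoxia response elements, ACGTG and GCGTG, on both strands; CACGTG holds ACGTG on either strand and counts as 2 matches, and CACGCGTG likewise holds overlapping matches. RefSeq's windows of 300 bases around the start of the gene (GRCh38.p14) were found for 100 of the 117 members, and not for ZNF654. Of these, 28 held ACGTG (28.0%) and 55 held GCGTG (55.0%), against 21.6% and 36.3% of all 27305 promoters and 23.7% and 44.1% of the 15843 promoters of protein-coding genes. Either core was in 2 of the 5 promoters of genes that rose in all 4 contrasts and in 9 of the 12 of genes that fell in all 4, and in 55.9% of the promoters of protein-coding genes. The members' windows had a median G+C content of 64.0%, against 62.7% in protein-coding genes. The estrogen response element palindrome was in 0 of the 100 and in 18 of the 27305 (0.07%). ZNF292 held ACGTG 6 times, more than in any other member's promoter searched, and 40 of the 27305 promoters held it that often; ZNF503 held 1 match of GCGTG, and ZNF160 none. ZNF544 and ZNF593, which fell, held 3 and 4 matches. The 5 windows are shown on the strand of the gene so that the cores, in capitals, can be set against the changes; a match describes letters only and does not show binding.
ZNF292 (chr6:87155315-87155614, + strand, rose): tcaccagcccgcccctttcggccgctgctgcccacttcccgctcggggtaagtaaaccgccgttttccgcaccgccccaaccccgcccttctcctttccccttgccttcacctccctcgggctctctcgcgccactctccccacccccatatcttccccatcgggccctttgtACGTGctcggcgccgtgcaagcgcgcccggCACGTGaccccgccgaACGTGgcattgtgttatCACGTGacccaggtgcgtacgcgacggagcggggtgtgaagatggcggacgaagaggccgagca
ZNF503 (chr10:75401867-75402166, - strand, rose): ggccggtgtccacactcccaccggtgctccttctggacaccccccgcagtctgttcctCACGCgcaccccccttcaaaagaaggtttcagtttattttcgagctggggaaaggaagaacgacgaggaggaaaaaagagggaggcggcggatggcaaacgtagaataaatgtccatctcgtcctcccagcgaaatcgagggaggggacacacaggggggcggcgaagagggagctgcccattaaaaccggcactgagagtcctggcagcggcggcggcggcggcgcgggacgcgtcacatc
ZNF160 (chr19:53103373-53103672, - strand, rose): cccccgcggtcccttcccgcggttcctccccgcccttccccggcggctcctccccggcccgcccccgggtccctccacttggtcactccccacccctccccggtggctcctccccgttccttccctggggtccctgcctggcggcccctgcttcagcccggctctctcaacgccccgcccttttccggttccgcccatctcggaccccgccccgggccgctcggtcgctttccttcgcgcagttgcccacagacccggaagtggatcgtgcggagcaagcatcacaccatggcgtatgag
ZNF544 (chr19:58228664-58228963, + strand, fell): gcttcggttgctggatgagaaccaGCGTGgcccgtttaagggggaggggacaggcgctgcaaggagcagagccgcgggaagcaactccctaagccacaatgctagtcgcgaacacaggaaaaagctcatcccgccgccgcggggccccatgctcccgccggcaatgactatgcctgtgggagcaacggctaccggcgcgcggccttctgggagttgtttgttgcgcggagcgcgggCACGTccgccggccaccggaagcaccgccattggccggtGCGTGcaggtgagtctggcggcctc
ZNF593 (chr1:26169658-26169957, + strand, fell): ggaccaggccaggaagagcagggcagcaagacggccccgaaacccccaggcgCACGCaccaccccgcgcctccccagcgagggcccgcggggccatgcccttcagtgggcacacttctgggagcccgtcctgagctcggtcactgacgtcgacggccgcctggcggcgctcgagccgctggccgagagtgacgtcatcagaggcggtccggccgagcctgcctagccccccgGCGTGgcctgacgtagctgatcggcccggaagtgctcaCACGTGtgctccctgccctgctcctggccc

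In normoxia ESR2 cells differed from parental cells by small amounts. ZNF227, a KRAB gene, was higher by 0.98 ± 0.11 (SE; limma adjusted p = 1.44e-06), and ZNF584, another, was lower by -0.68 ± 0.09 (limma adjusted p = 1.57e-05). Of the members 23 were higher in ESR2 cells, against 9.76% of all genes, and 15 were lower, against 8.86%; among the genes with a mean above 6 the shares were 17.4% and 16.4%, and the members' 19.7% and 12.8%. ZNF227 read 5.74, 5.69 and 5.44 in parental and 6.78, 6.58 and 6.43 in ESR2 cells, without overlap. The next largest were ZNF711 at 0.70, ZNF267 at 0.63, ZNF92 at 0.63, ZNF219 at 0.56, ZNF189 at 0.55, ZNF776 at 0.49, ZNF558 at 0.49, ZNF644, a partner of the methyltransferases EHMT1 and EHMT2, at 0.48 and ZNF302 at 0.47. Lower were ZNF706 and ZNF263 at -0.47 each, ZNF598 at -0.45, ZNF689 at -0.44, ZNF212 and ZNF77 at -0.40 each, ZNF250 at -0.36, ZNF579 at -0.34 and ZNF394 at -0.31. Without replicate 2 of normoxic parental cells 17 were higher and 12 lower, and the calls of ZNF644, ZNF302, ZNF598, ZNF212, ZNF579 and ZNF394 were lost; with the spread taken only from the 2 groups compared, 11 members were called. With all probe sets of a gene averaged, the calls of ZNF776, ZNF558, ZNF706 and ZNF250 were lost. Without x and s probe sets those of ZNF267 and ZNF302 were lost, with differences of 0.50 and 0.02 (limma adjusted p = 0.0782 and 0.93). The means of the probe sets left were 6.54 and 3.98. A second x probe set of ZNF302, with a mean of 5.36, differed by 0.35 (limma adjusted p = 0.0168, over all probe sets).

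With estradiol, 25 members were higher in normoxic ESR2 cells, against 8.45% of all genes, and 9 were lower, against 5.22%. Normalizing the quantiles once more gave 19 and 11, which lowered the share of higher genes among the calls from 73.5% to 63.3%. ZNF227 was again higher, by 0.89, followed by ZNF385B at 0.60, ZNF219 at 0.58, ZNF271P at 0.57 and ZNF189 at 0.54. The call of ZNF271P was lost after that step and with any of 5 of the 6 arrays left out (limma adjusted p from 0.0563 to 0.135), and averaging probe sets ended those of ZNF189, ZNF706 and ZNF250 (limma adjusted p = 0.0788, 0.834 and 0.401). ZNF584 was lower by -0.44, ZNF77 and ZNF22 by -0.42 each, ZNF706 by -0.40 and ZNF250 by -0.37. The contrasts with and without estradiol share no arrays: 21 members were called in the same direction, 55.3% of the 38 and 61.8% of the 34, against 50.7% and 69.0% over all genes, and 0 in opposite directions. Of all genes tested, 0 were called in opposite directions too. Leaving out replicate 2 of the parental estradiol group left 17 members called, and leaving out replicate 2 or 3 of the ESR2 estradiol group left 19 or 20.

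In hypoxia ESR2 and parental cells differed in 77 members, of which most were higher in ESR2 cells. ZNF552 was 4.38-fold higher and ZNF226 4.86-fold lower. Of the members 57 were higher in hypoxic ESR2 cells, 48.7% against 20.4% of all genes and 36.0% of the genes with a mean above 6. A further 20 were lower, 17.1% against 20.0% of all genes and 24.2% of the bright genes. The median difference was 0.28 for the members and 0.06 for the bright genes; normalizing the quantiles once more reduced these counts to 45 higher and 24 lower and the members' median to 0.13. By array, ZNF552 read 5.16, 5.40 and 5.07 in hypoxic parental cells and 7.47, 7.33 and 7.23 in hypoxic ESR2 cells, a difference of 2.13 ± 0.08 (SE; limma adjusted p = 3.9e-15). The ESR2 values lay slightly above the 7.03 to 7.05 of normoxic parental cells. ZNF200 read 5.34, 5.45 and 5.20 in the parental and 7.11, 7.10 and 6.62 in the ESR2 cells. Its other probe set, of nearly equal brightness, had a smaller difference of 0.67 (limma adjusted p = 2.92e-06, over all probe sets). The other leading differences were those of ZNF544 and ZNF302 at 1.78 each, ZNF398 at 1.48, ZNF189 at 1.37, ZNF557 at 1.32, ZNF252P at 1.26, ZNF227 at 1.22 and ZNF641 at 1.18. On its brightest probe set without an x or s suffix, with a mean of 3.98, ZNF302 had a difference of -0.01 (limma adjusted p = 0.916). A second x probe set of ZNF302, with a mean of 5.36, differed by 1.21 (limma adjusted p = 1.49e-09, over all probe sets). Of the 30 members on chromosome 19, 17 were higher and 2 lower, with a median difference of 0.38, and of the 87 on other chromosomes 40 were higher and 18 lower, with a median of 0.27; that contrast between chromosomes was not tested.

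The members that were lower in hypoxic ESR2 than in hypoxic parental cells were led by ZNF226, at -2.28 ± 0.13 (SE; limma adjusted p = 1.33e-12), ZNF451 at -1.54 ± 0.17 and ZNF292 at -1.09 ± 0.19. ZNF277 at -0.85, ZNF280D at -0.78, ZNF165 at -0.75, ZNF644 at -0.74, ZNF12 at -0.54, ZNF385B at -0.51 and ZNF185, an actin-associated LIM protein, at -0.46 followed. The call of ZNF185 was lost without x and s probe sets (limma adjusted p = 0.117), and with its probe sets averaged ZNF644 had a difference of 0.0087. ZNF292 rose in both kinds of cells, and reached 8.48, 8.55 and 8.40 in parental and 7.28, 7.53 and 7.36 in ESR2 cells. With estradiol, 47 members were higher in hypoxic ESR2 cells, against 27.8% of all genes, and 37 lower, against 19.8%. As shares of the members these are 40.2% and 31.6%, against 35.4% and 36.2% of the genes with a mean above 6. The 3′ to 5′ index as a covariate gave 47 higher and 38 lower. ZNF552 was higher by 2.67, ZNF302 by 2.33, ZNF271P by 2.09, ZNF200 by 1.83 and ZNF800 by 1.71, and ZNF226 was lower by -2.56, ZNF451 by -2.33, ZNF395 and ZNF558 by -1.90 each and ZNF609 by -1.76. ZNF271P was kept only through this group, and without x and s probe sets ZNF609 had a difference of -0.21 (limma adjusted p = 0.116). Of the calls, 55 had the same direction with and without estradiol, 71.4% of the 77 and 65.5% of the 84, and 10 the opposite direction. Over all genes tested the shares in the same direction were 50.5% and 42.8%, and 1083 of 18239 had the opposite direction.

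A few genes differed between ESR2 and parental cells at both oxygen levels, without and with estradiol. Higher in all 4 contrasts with parental cells, which share no arrays, were ZNF302, ZNF227, ZNF189, ZNF92, ZNF776, ZNF326 and ZNF219, 5.98% of the members against 1.98% of all genes and 3.52% of the bright genes. Lower in all 4 were ZNF706 and ZNF593, 1.71% against 1.28% and 2.68%. Not all of these hold on other probe sets. ZNF302 had differences of 0.02 and -0.0150 without x and s probe sets in normoxia and hypoxia (limma adjusted p = 0.93 and 0.916). The probe set left then had a mean of 3.98. A second x probe set of ZNF302, with a mean of 5.36, differed by 0.35 and 1.21 (limma adjusted p = 0.0168 and 1.49e-09, over all probe sets). The normoxic call of ZNF302 was lost without replicate 2 of parental cells. With probe sets averaged, ZNF776 differed by 0.11 in normoxia (limma adjusted p = 0.22), ZNF189 by 0.37 in normoxia with estradiol (limma adjusted p = 0.0788) and ZNF706 by -0.05 in normoxia (limma adjusted p = 0.573). ZNF227 was higher by 0.89 to 1.44. ZNF302 was higher by 0.47 to 2.33, and its hypoxic ESR2 arrays, 6.94, 6.98 and 7.01, lay at the level of its normoxic ESR2 arrays, 6.95, 6.89 and 6.71. ZNF326 belongs to the DBIRD complex, which couples transcription with splicing, and ZNF219 works with SOX9. ZNF706 read 10.27, 10.64 and 10.29 in normoxic parental cells and 9.88, 9.94 and 9.95 in normoxic ESR2 cells; a dimmer probe set of ZNF706 was called in the opposite direction in that contrast.

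The change in hypoxia itself differed between ESR2 and parental cells for 66 members. The interaction, the hypoxia change in ESR2 cells minus that in parental cells, was positive for 46 members, against 16.4% of all genes, and negative for 20, against 14.3%; these are 39.3% and 17.1% of the members, and 30.1% and 20.7% among genes with a mean above 6. Of the 46, 23 fell in parental cells without a call in ESR2 cells, 11 had a fall in either line, 5 fell in parental and rose in ESR2 cells, and 7 had no call in parental cells and rose in ESR2 cells. Of the 20, 8 rose in parental cells without a call in ESR2 cells, 5 rose there and fell in ESR2 cells, 3 had a rise and 1 a fall in either line, and 3 had no call in parental cells and fell in ESR2 cells. The 10 members called in opposite directions were ZNF226, ZNF277, ZNF330, ZNF451 and ZNF644, which rose in parental cells, and ZNF232, ZNF252P, ZNF394, ZNF398 and ZNF641, which fell there. Over all genes tested, 743 of 18239 were called in opposite directions. ZNF232 and ZNF330 were named after their values were seen. Of the 30 members on chromosome 19, 17 had a positive and 4 a negative interaction, and of the 87 on other chromosomes 29 and 16. That contrast between chromosomes was not tested. Without replicate 2 of normoxic parental cells the interaction was positive for 51 and negative for 17. A second quantile normalization gave 40 positive and 24 negative, and moved the members' median from 0.21 to 0.09.

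On their brightest probe sets ZNF552 and ZNF200 fell in parental cells and were not called in ESR2 cells: the hypoxia changes of ZNF552 were -1.83 and 0.15, and those of ZNF200 were -1.74 and 0.22 (limma adjusted p of the interactions 2.31e-11 and 4.77e-08). The other ZNF200 probe set, of nearly equal brightness, fell in both, with changes of -1.46 and -0.38. Its fall in ESR2 cells was called (limma adjusted p = 0.00243, over all probe sets), and its interaction was 1.08. On its brightest probe set ZNF544 fell in both, by 0.49 in ESR2 cells, where another changed by -0.19 and was not called (limma adjusted p = 0.214, over all probe sets). ZNF689 fell by 1.70 in parental cells and had a change of -0.27 in ESR2 cells that was not called (limma adjusted p = 0.0566). ZNF398 fell by 1.12 in parental cells and rose by 0.41 in ESR2 cells, where it read 6.57, 6.28 and 6.30 in normoxia and 6.89, 6.91 and 6.59 in hypoxia. On the negative side, ZNF451 rose from 7.18, 6.13 and 7.04 to 7.59, 7.84 and 7.80 in parental cells and went from 7.01, 6.93 and 6.62 to 6.10, 6.31 and 6.21 in ESR2 cells. These values come from an s probe set. Another, with a mean of 5.07, changed by 0.68 and -0.0046 (limma adjusted p = 3.78e-05 and 0.983, over all probe sets). Its interaction was -0.68 (limma adjusted p = 0.00263, over all probe sets). ZNF644 rose by 0.61 in parental cells and changed by -0.61 in ESR2 cells, and 3 of its 5 probe sets with a mean above 5 were called in these directions; averaging all its probe sets ended the call of the interaction (limma adjusted p = 0.123). ZNF277 changed by 0.64 and -0.38.

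**Figure D3:**
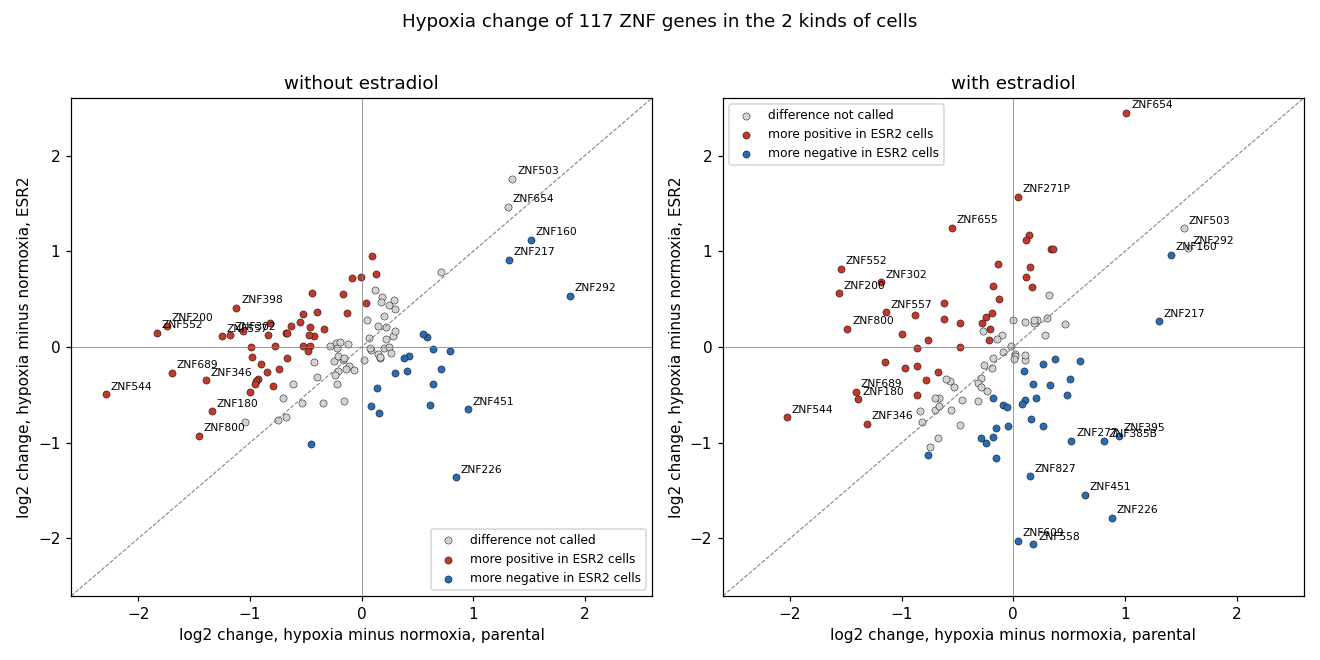
Hypoxia minus normoxia change in log2 signal of the 117 ZNF genes in parental cells (horizontal) and ESR2 cells (vertical), without estradiol (left) and with it (right). Colour shows the call of the interaction (red more positive in ESR2 cells, blue more negative, grey not called), the dashed line marks equal change, and genes far from 0 or from the line are named; ZNF503 and ZNF654 lie at the upper right without estradiol, and ZNF226 lies in the lower right quadrant in both plots.

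With estradiol the interaction was positive for 41 members, against 20.6% of all genes, and negative for 33, against 18.1%. As shares of the members these are 35.0% and 28.2%, against 27.7% and 33.2% of the genes with a mean above 6. The 3′ to 5′ index as a covariate gave 40 positive and 34 negative. ZNF552 at 2.36, ZNF200 at 2.13, ZNF302 at 1.86, ZNF655 at 1.80 and ZNF800 at 1.67 led the positive side, and ZNF226 at -2.67, ZNF558 at -2.24, ZNF451 at -2.18, ZNF609 at -2.07 and ZNF395 at -1.87 the negative side. Without x and s probe sets ZNF451 lost this call (-0.38, limma adjusted p = 0.0642). The contrasts without and with estradiol share no arrays: 39 members had an interaction of the same sign in both, 59.1% of the 66 and 52.7% of the 74, and 7 the opposite sign. Over all genes the shares with the same sign were 50.0% and 39.7%, and 587 of 18239 had opposite signs in the 2 contrasts. ZNF552, ZNF200, ZNF226 and ZNF451 are among the leading genes of both. The hypoxia changes in parental and ESR2 cells correlated across members with r = 0.37 without estradiol and 0.14 with it, and across all genes with 0.44 and 0.34.

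ZNF226 shows that probe sets of 1 gene can differ. Its brightest probe set rose from 6.71, 6.98 and 6.86 to 7.58, 7.80 and 7.71 in hypoxic parental cells and went from 6.85, 6.61 and 6.86 to 5.69, 5.58 and 4.98 in hypoxic ESR2 cells. A second of nearly equal brightness changed alike, by 0.99 in parental and -1.37 in ESR2 cells (limma adjusted p = 4.47e-09 and 9.52e-11, over all probe sets). Another, with a mean of 4.92, changed by -1.35 in parental cells and -0.22 in ESR2 cells, so that its interaction was 1.13 (limma adjusted p = 0.000526) where that of the brightest was -2.20. Averaging the probe sets left a rise of 0.11 in parental cells (limma adjusted p = 0.0982). Over the members, 38 of those called in hypoxic parental cells had another probe set with a mean above 5. In 29 of them another was called in the same direction, in 8 none was called, and in ZNF394 another was called in the opposite direction. In hypoxic ESR2 cells the counts were 20, 5 and 2 of 27, the 2 being ZNF326 and ZNF512B. For hypoxic ESR2 against hypoxic parental cells the counts were 29, 4 and 3 of 36, the 3 being ZNF394, ZNF644 and ZNF706.

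**Figure D4:**
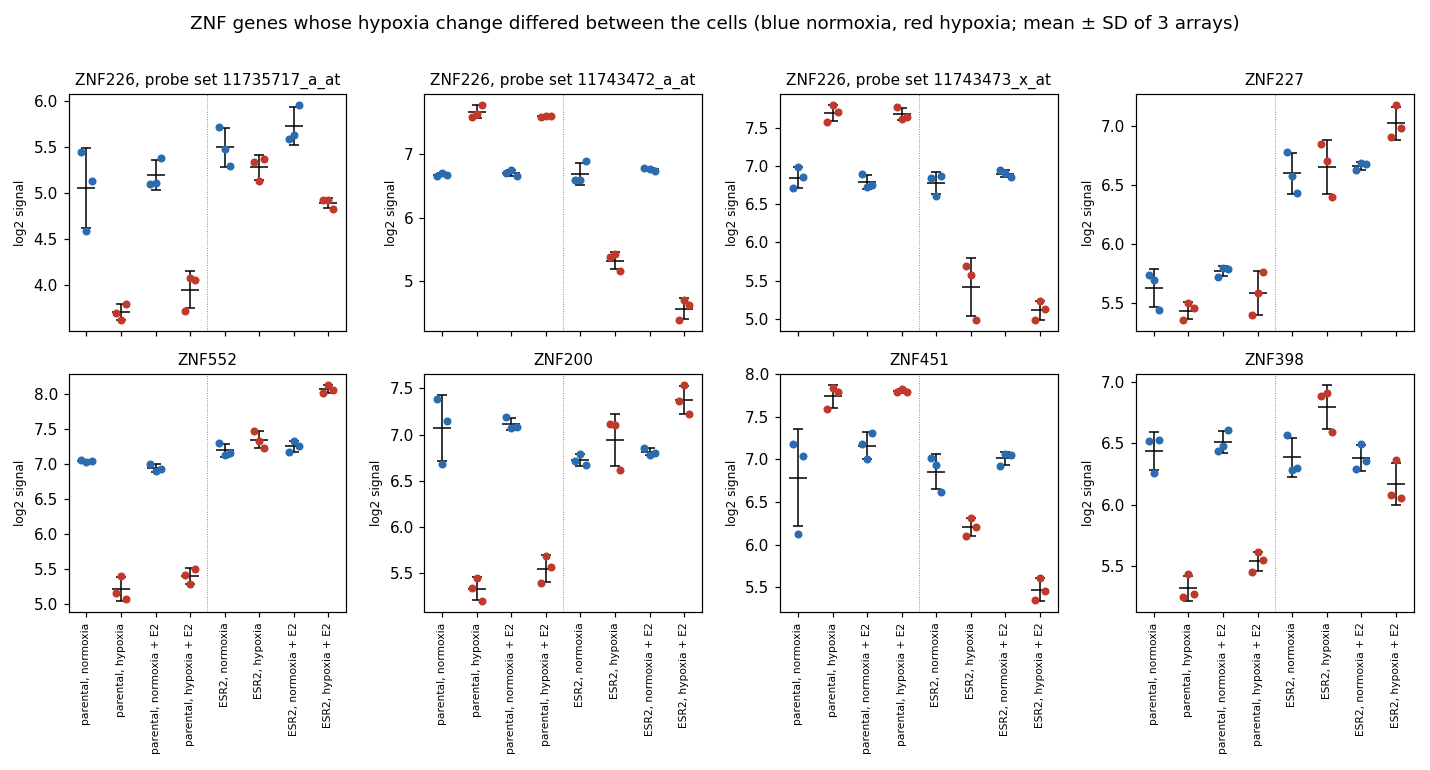
Log2 signal on each of the 24 arrays (points; blue normoxia, red hypoxia; E2, estradiol) with group mean ± SD of 3 arrays. The upper row holds 3 of the 4 probe sets of ZNF226 (the fourth, with a mean of 2.50, is not drawn) and the neighbouring gene ZNF227; the lower row holds ZNF552, ZNF200, ZNF451 and ZNF398. The dim ZNF226 probe set is lowest in hypoxic parental cells, where the other pair is highest.

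Neighbouring members did not always move alike. In the order of protein-coding genes on GRCh38.p14, 14 members form 6 runs of direct neighbours. ZNF226 and ZNF227 adjoin on chromosome 19, and in hypoxia ZNF226 was 2.28 lower and ZNF227 1.22 higher in ESR2 than in parental cells on the log2 scale. For ZNF226 this depends on the probe set. The second of nearly equal brightness differed by -2.35. The dim one, with a mean of 4.92, differed by 1.57 (limma adjusted p = 4.13e-08, over all probe sets), the direction of ZNF227. Of the chromosome 19 run ZNF274, ZNF544 and ZNF8, all fell in hypoxic parental cells, by 0.84, 2.29 and 0.43, and all had a positive interaction, of 0.97, 1.80 and 0.54. ZNF274 itself recruits SETDB1 to the ends of ZNF genes. In the run ZNF398, ZNF282 and ZNF212, the hypoxia changes in parental cells were -1.12, -0.28 and -0.55, of which the middle one was not called. ZNF428 rose in hypoxic ESR2 cells by 0.96, and its neighbour ZNF576 changed by -0.22, not called. Neighbours were not tested against other genes. The genes of these runs outside the rule for naming, ZNF8, ZNF274, ZNF282 and ZNF576, were named after their values were seen.

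Estradiol gave no call among the members in 3 of its 4 contrasts. In normoxic parental cells 0 of 117 members passed limma's adjusted test, against 0% of all genes higher and 0.0110% lower, and 22 had an unadjusted p under 0.05, as did 1658 of the 7189 genes with a mean above 6 and 2524 of all 18239. In hypoxic parental cells 0 passed, against 0.00548% higher and 0.0110% lower, with 13 at an unadjusted p under 0.05, beside 377 of the bright genes and 846 of all genes. In normoxic ESR2 cells 0 passed, against 0% of all genes in either direction, with 5 at an unadjusted p under 0.05, beside 271 and 981. Weighting arrays by quality gave 3, 2 and 0 calls in these contrasts. The median changes of the members were 0.03, 0.05 and 0.05.

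In hypoxic ESR2 cells 79 members differed with estradiol. ZNF655, which encodes a partner of the exchange factor Vav, was higher by 1.41 ± 0.09 (SE; limma adjusted p = 6.01e-12), and ZNF827 was lower, at -2.03 ± 0.12 (limma adjusted p = 2.99e-12). With estradiol 35 members were higher, 29.9% against 35.4% of all genes, and 44 were lower, 37.6% against 21.6%; among genes with a mean above 6 the shares were 30.4% and 38.8%. Normalizing the quantiles once more gave 43 higher and 35 lower, so the share of higher genes among the calls went from 44.3% to 55.1% and the balance of directions is not settled. The median change over all genes tested was 0.12, or 0.03 after that step. This is the group whose 3′ to 5′ index stood apart, at 3.74 ± 0.30 against 2.10 ± 0.10 in hypoxic ESR2 cells without estradiol (SD, n = 3); with the index as a covariate 27 members were higher and 38 lower, and 37.8% of all genes were called in place of 57.0%.

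By array, ZNF655 read 8.17, 8.08 and 8.23 in hypoxic ESR2 cells without and 9.50, 9.71 and 9.50 with estradiol, above all other groups, whose arrays reached 8.52. ZNF92 read 8.26, 8.18 and 8.05 without and 9.35, 9.60 and 9.38 with estradiol. ZNF800 was higher by 1.21 ± 0.14 and ZNF354A by 1.16 ± 0.10 (SE). ZNF271P and ZNF654 read highest here too, but this group is what made them members. ZNF800 had read 7.07, 7.03 and 6.68 in normoxic ESR2 cells and 5.98, 6.10 and 5.91 in hypoxic ones, and with estradiol in hypoxia it read 7.03, 7.42 and 7.16, at its normoxic level. ZNF827 read 7.43, 7.52 and 7.25 without and 5.45, 5.68 and 4.98 with estradiol, and between 6.58 and 6.90 in every other group. ZNF395 rose in hypoxia in the other 3 settings but read 6.73, 6.62 and 6.54 in hypoxic ESR2 cells with estradiol, below its normoxic arrays, which lay between 7.33 and 8.01. ZNF609, known also as the host of a circular RNA, changed by -1.87 ± 0.09, ZNF395 by -1.67 ± 0.08, ZNF264 by -1.34 ± 0.13 and ZNF558 by -1.31 ± 0.10 (SE). For ZNF609 and ZNF264 this rests on s probe sets, which match several transcripts: on other probe sets, with means of 4.99 and 3.44, the changes were -0.09 and -0.05 (limma adjusted p = 0.506 and 0.777).

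**Figure D5:**
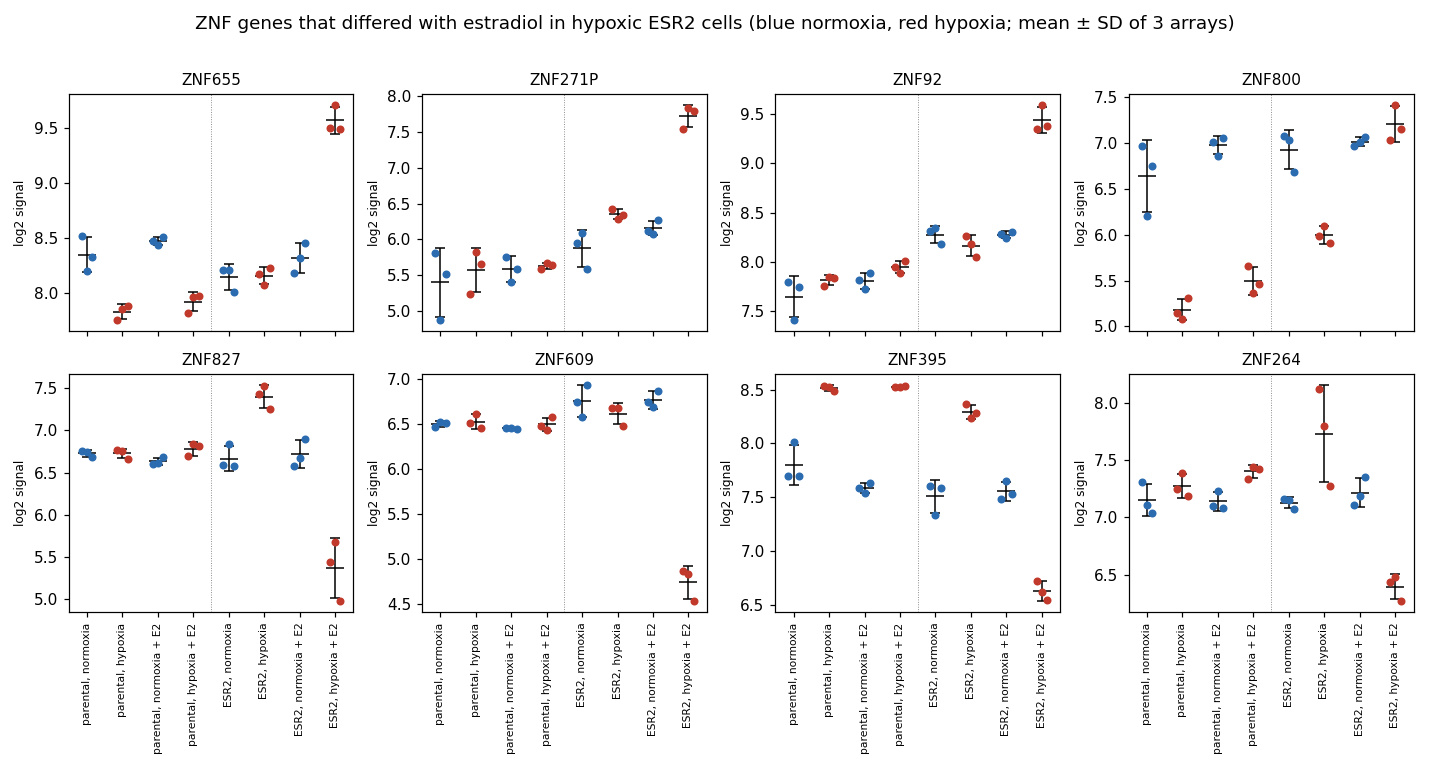
Log2 signal on each of the 24 arrays (points; blue normoxia, red hypoxia; E2, estradiol) with group mean ± SD of 3 arrays for 4 ZNF genes that were higher (upper row) and 4 that were lower (lower row) with estradiol in hypoxic ESR2 cells. In ZNF655, ZNF271P and ZNF92 the 3 arrays of that group lie above all 21 others, and in ZNF827, ZNF609, ZNF395 and ZNF264 below all of them.

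Of 26 genes for the corepressors and heterochromatin proteins through which KRAB zinc fingers act, 6 rose and 12 fell in hypoxic parental cells, 23.1% and 46.2%. The shares were 16.4% and 21.2% of all genes and 26.5% and 39.9% of those with a mean above 6. The 26 were not filtered by level. The median change was -0.08 for the 26 and for the genes with a mean above 6. CHD3, a remodelling enzyme of the NuRD complex, rose by 1.01 ± 0.08 in parental cells, ATRX, a chromatin remodeller of heterochromatin, rose by 1.06 ± 0.12, and ATF7IP, the partner of SETDB1, changed by -1.12 ± 0.10 (SE; limma adjusted p = 1.86e-10, 1.44e-07 and 3.4e-09). In hypoxic ESR2 against hypoxic parental cells 11 of the 26 were higher and 4 lower, 42.3% and 15.4%, against 20.4% and 20.0% of all genes and 36.0% and 24.2% of the bright genes. TRIM28 read 8.96 ± 1.08 in normoxic parental cells, the widest spread of the 8 groups, and between 7.43 ± 0.24 in hypoxic ESR2 cells with estradiol and 8.48 ± 0.18 (SD, n = 3) in normoxic ESR2 cells. The 27 zinc finger genes named ZBTB, ZFP, ZSCAN or ZKSCAN with a mean above 6 gave 16 rises and 4 falls in hypoxic parental cells, 59.3% and 14.8%, with a median change of 0.31. ZBTB33, which encodes the methyl-CpG binding protein Kaiso, rose by 1.12 ± 0.09, ZBTB5 by 1.02 ± 0.09 and ZFP36, the mRNA decay factor tristetraprolin, whose fingers are of another type, by 1.03 ± 0.09, and ZBTB24, which activates CDCA7, changed by -1.97 ± 0.10 (SE). In the interaction with estradiol 1 was positive and 14 were negative, 3.70% and 51.9% against 27.7% and 33.2% of the bright genes. Of the 374 ZNF genes not kept, 32 rose and 62 fell in hypoxic parental cells, 8.56% and 16.6% against 16.4% and 21.2% of all genes, and 80 were higher and 47 lower in hypoxic ESR2 than in hypoxic parental cells, 21.4% and 12.6% against 20.4% and 20.0%. Differences between these lists and the members were not tested.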

How the data were processed

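Total RNA of 24 samples was hybridised to Affymetrix 3′ arrays. The deposited values are log2 signals that the authors made with RMA, which corrects background, normalizes quantiles and sums up probes; the submitters' processing notes name RMA and affy, of no given version. RMA compresses changes of dim genes. Of 49386 probe sets, 93 are controls, 45253 carry a single gene symbol by GEO's annotation of the platform, 1327 carry several and 2713 none. The brightest single-symbol probe set by mean stood for each of 18239 genes. A model of 8 group means (16 residual degrees of freedom) was fitted with limma 3.58.1 in R 4.3.3, tested on simulated data, with Benjamini-Hochberg adjustment over all genes in each of 14 comparisons; a call has an adjusted p under 0.05. Entrez IDs of 117 of 117 members matched RefSeq's GRCh38.p14 gene table, used for names, chromosomes and neighbours; promoter sequences are RefSeq's. Figures used matplotlib 3.10.9. Protein sequences were not used here, so members were not divided by KRAB domain or finger number.

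The members and lists were chosen with earlier results of these data known. Named were the 10 largest rises and falls (adjusted p under 0.05, groups not overlapping) in hypoxia without estradiol and in ESR2 against parental cells without estradiol, 5 and 5 in other comparisons (interactions by adjusted p alone), members called in 1 direction in all 4 hypoxia or all 4 ESR2 comparisons, the 5 brightest, 3 on either side of the level, and up to 4 of smallest p from each other list. Alternatives were a second quantile normalization, median centring, a filter on dim genes, other probe set rules, levels of 5 and 7, an intensity trend, array weights, the spread of the compared groups alone, a replicate block and leaving out each array; the 3′ to 5′ index as a covariate and the tests of other probe sets were added after seeing the data. The number of arrays limits the precision.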

Additional observations from a re-analysis of the deposited data

Results flagged for a closer look

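The response to hypoxia was not the same in ESR2 as in parental cells by a test of the difference itself (limma's interaction term) in the following genes, chosen as the 5 largest in each direction; values are the log2 change in ESR2 cells minus that in parental cells. Without estradiol it was 1.98 for ZNF552, 1.96 for ZNF200, 1.80 for ZNF544, 1.53 for ZNF398 and 1.43 for ZNF689, and -2.20 for ZNF226, -1.61 for ZNF451, -1.33 for ZNF292, -1.22 for ZNF644 and -1.03 for ZNF277. With estradiol it was 2.36 for ZNF552, 2.13 for ZNF200, 1.86 for ZNF302, 1.80 for ZNF655 and 1.67 for ZNF800, and -2.67 for ZNF226, -2.24 for ZNF558, -2.18 for ZNF451, -2.07 for ZNF609 and -1.87 for ZNF395. Without x and s probe sets the value of ZNF451 with estradiol was -0.38 (limma adjusted p = 0.0642), and with probe sets averaged that of ZNF644 was -0.47 (limma adjusted p = 0.123), so that neither call held there. In ZNF609 the difference with estradiol lies in the hypoxic ESR2 cells, the group with the highest 3′ to 5′ index. In ZNF655 and ZNF395 it lies there only in part. Parental cells with estradiol changed the other way in hypoxia, by -0.55 and 0.94, against 1.25 and -0.93 in ESR2 cells. The part of RNA length in these differences was not tested gene by gene beyond the covariate.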

How the results depend on the processing

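The measure compared was the percentage of the 117 members called. It stayed within 1.5 times its value in every comparison under a second quantile normalization, median centring, a filter on dim genes, the intensity trend, levels of 5 and 7 and the 3′ to 5′ index as a covariate. For ESR2 against parental cells in normoxia it was 9.40% in place of 32.5% with the spread of only the groups compared. With estradiol that comparison gave 18.8% in place of 29.1% with probe sets averaged per gene, and 14.5% to 25.6% with an array left out. Array weights gave 2.56% and 1.71% in place of 0 for estradiol in normoxic and hypoxic parental cells, and leaving out an array gave 0 to 6.84% in the former, with 8 calls without replicate 1 of normoxic parental cells. Of 150 results for named genes, 137 kept their call with the mean of probe sets, and 129 of the 142 that could be computed kept it without x and s probe sets. The sign reversed without x and s probe sets for ZNF302 in hypoxic parental cells (0.0027), for ZNF302 in ESR2 against parental cells in hypoxia (-0.0150) and for ZNF451 in hypoxic ESR2 cells with estradiol (0.0179), and with the mean of probe sets for ZNF644 in ESR2 against parental cells in hypoxia (0.0087); the cause was not tested. Same-numbered arrays did not deviate together, with correlations of -0.29 to 0.29 and 7 of 36 pairs over 0.1. A replicate block gave 63.2% in place of 64.1% for hypoxia in parental cells, and all 150 named calls were kept.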
